A study of Mus musculus with 8 samples.

Results

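The Hedgehog pathway was described in Lewis lung carcinoma (LLC) cells, a mouse lung carcinoma line, through 7 genes matched by symbol: the transcription factors Gli1, Gli2 and Gli3, the receptor Ptch1, the transducer Smo, and the inhibitors Sufu and Hhip. These are 7 of 55487 genes in the count table, and all 7 passed the filter on low counts. The genes were chosen by pathway membership with the fold changes of this same comparison already known. Their values in the genotype comparison are therefore given as a description. Calls and p-values from the fit over all genes are printed for them but are not read as a test of these genes. Another 100 pathway genes in 7 lists were looked at beside them. These lists were written from textbook knowledge with earlier results of these data known, so counts over them are a description too.

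Poly(A) RNA was sequenced from cultured cells in 8 libraries, 4 labelled wild-type and 4 labelled Ago2 knock-out (ΔAgo2). Both groups were grown in the same serum-containing medium with no further treatment, and all libraries carry the same batch number. ΔAgo2 cells were made with a lentiviral CRISPR guide against Ago2 and puromycin selection, and single cells were then sorted to obtain clones. The wild-type cells were the parental line. The labels number the libraries of each group as biological replicates and do not say what was kept separate between them, so the p-values measure the spread between these libraries, part of which may be technical. Nor do they say which clone was sequenced or whether it was more than 1, so genotype and clone cannot be told apart.

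In the Hedgehog pathway, the receptor Ptch1 holds Smo inactive until a secreted ligand binds it. Active Smo gathers in the primary cilium and frees the Gli factors from Sufu and from processing into repressors. Gli2 acts mostly as an activator and Gli3 mostly as a repressor, whereas Gli1 is an activator that is itself switched on by the pathway. Gli1, Ptch1 and Hhip are the classical readouts of pathway activity, and Ptch1 and Hhip feed back on it by binding the ligands. In lung development the ligand comes from the epithelium and acts on the mesenchyme. Ago2 is an Argonaute protein, and all mammalian members of this family carry miRNAs to matching sites in mRNAs, mostly in 3′ UTRs. Among them only Ago2 can cut its target RNA.

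The mature sequences of 4 mouse miRNAs that have been tied to Hedgehog genes are shown because Argonaute proteins, among them Ago2, read such sites. They were picked from general knowledge after the expression values were seen, and their own levels were not measured here. The sequences are from RefSeq, 5′ to 3′, with the seed (bases 2 to 8) in capitals.

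mmu-miR-324-5p: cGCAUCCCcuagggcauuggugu
mmu-miR-326-3p: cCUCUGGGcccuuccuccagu
mmu-miR-125b-5p: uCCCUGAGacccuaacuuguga
mmu-miR-214-3p: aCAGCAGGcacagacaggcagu

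The complement of each 7-base seed was searched, on the sense strand, in the 3′ UTR of each gene's longest coding transcript (GENCODE, GRCm38). Matches of miR-326-3p (CCCAGAG, in 17.11% of all 21100 3′ UTRs) lay in Gli2, Gli3, Ptch1 (3 copies), Smo and Sufu. Matches of miR-125b-5p (CTCAGGG, in 13.44%) lay in Sufu (3 copies), Ptch1 and Hhip. Matches of miR-324-5p (GGGATGC, in 7.73%) and of miR-214-3p (CCTGCTG, in 19.85%) lay in Ptch1 and in Sufu, with 1 copy each. No match of the 4 lay in Gli1, whose 3′ UTR has 165 bases, and the 3′ UTR was longer in 93.2% of tested genes. The 3′ UTRs of Smo (1080 bases), Gli2 (1653), Sufu (2860), Gli3 (3245), Hhip (6480) and Ptch1 (9012) were longer, and longer ones hold more matches to any 7 bases. A match is a description of the sequence and not a measured site. The matches below show 30 bases of the mRNA strand with the seed match in capitals.

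Smo, miR-326-3p, chr6:29760590-29760619, plus strand: ggatgatggtaCCCAGAGtgggctgtggtg
Gli2, miR-326-3p, chr1:118834401-118834430, minus strand: tctgtttacaaCCCAGAGacaggaccaact
Gli3, miR-326-3p, chr13:15728469-15728498, plus strand: tgcagccttctCCCAGAGgttccttataaa
Sufu, miR-125b-5p, first copy, chr19:46486756-46486785, plus strand: ccatcctcctgCTCAGGGcccccagctctt
Sufu, miR-214-3p, chr19:46487870-46487899, plus strand: atgtctaaactCCTGCTGggaccagaccct
Ptch1, miR-324-5p, chr13:63515671-63515700, minus strand: gctagatggatGGGATGCaaatgtcttaat
Hhip, miR-125b-5p, chr8:79969103-79969132, minus strand: cagcaaatctaCTCAGGGtgagaaatgagg

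Promoter windows from 250 bases before to 50 bases after the gene start were matched by symbol for 6 of the 7 genes (RefSeq, GRCm38.p6), all but Gli1. The Gli motif GACCACCCA, searched on both strands, was in none of these 6 windows and in 0.253% of all 32851 windows, which says only that these letters are not there.

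Total counts ranged from 39628101 to 68530912 per library. Wild-type replicate 4 stood apart: its median Spearman correlation with the other wild-type libraries was 0.864, against 0.948 to 0.961 for those 3 and 0.985 to 0.986 within ΔAgo2. Its share of mitochondrial counts was 0.54%, against 2.39% to 4.51% in the other 7, and its deviation from the others followed GC content across genes (Spearman rho 0.74). Results are therefore also given without it. The targeted Ago2 transcript was at 119 to 519 counts per 1000000 (CPM) in wild-type and 293 to 408 CPM in ΔAgo2 libraries. Its mRNA level therefore did not separate the labels, and counts over the whole gene do not show editing at the guide's site. For the knock-out the paper refers to a Western blot of Ago2 protein in wild-type and ΔAgo2 LLC cells. Of 6 mesenchymal markers, Vim was abundant (4334 ± 1345 CPM in wild-type, SD, n = 4) and Pdgfra was at 31.3 CPM, while Pdgfrb, Col1a1 and Col1a2 were at 3.13, 1.46 and 0.438 CPM and Thy1 had at most 2 counts in every library. Pdgfrb had a log2 fold change of -2.35 with overlapping groups, and it was called by DESeq2 (adjusted p = 0.0400) and not by edgeR (adjusted p = 0.440). Of the epithelial markers, Krt8 and Krt18 were present, while Epcam had at most 1 count in every library and Cdh1 at most 9, so the epithelial surface markers were at or near 0. Among immune markers, Ptprc, Cd3e and Adgre1 had at most 2 counts in every library and Cd14 was at 16.1 CPM in wild-type cells; the 3 endothelial markers summed to at most 0.974 CPM.

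Per transcript length, Smo was the most abundant of the 7 and Gli1 the least. In wild-type cells the levels in transcripts per 1000000 (TPM) were 76.9 ± 24.9 for Smo, 25.3 ± 18.1 for Gli3, 22.0 ± 7.74 for Sufu, 9.35 ± 4.46 for Ptch1, 3.74 ± 2.10 for Hhip, 2.85 ± 1.82 for Gli2 and 1.08 ± 0.447 for Gli1 (mean ± SD, n = 4). The order was the same in ΔAgo2 cells, at 71.9 ± 18.3, 33.0 ± 5.34, 17.2 ± 2.89, 10.6 ± 2.27, 8.18 ± 1.53, 2.42 ± 0.673 and 0.0775 ± 0.0624 TPM. In wild-type cells the libraries of Smo were all above those of Gli3 and those of Sufu all above those of Ptch1, while every other pair of neighbours in the order overlapped. In ΔAgo2 cells only Ptch1 and Hhip overlapped.

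**Figure D1:**
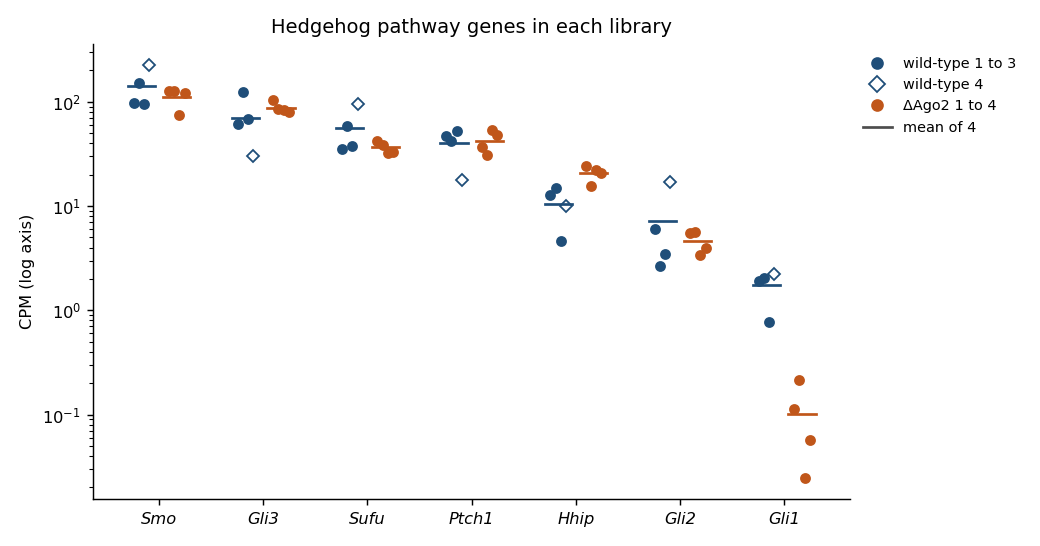
CPM (log axis) of the 7 Hedgehog pathway genes in each of the 8 libraries; blue points are wild-type, the open diamond is wild-type replicate 4, orange points are ΔAgo2, and bars are means of 4. The ΔAgo2 libraries lay below all wild-type libraries for Gli1 and above them for Hhip, and overlapped them for the other 5 genes.

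Gli1, the activator that is also a pathway target (chr10:127329882-127341974, minus strand), was counted 93, 145, 52 and 72 times in the wild-type libraries (replicates 1 to 4, as in all sentences of this kind) and 7, 9, 1 and 3 times in the ΔAgo2 libraries. Every wild-type library was above every ΔAgo2 library. In CPM the wild-type libraries were at 1.89, 2.05, 0.772 and 2.23 and the ΔAgo2 libraries at 0.114, 0.214, 0.0245 and 0.0567. The log2 fold change was -4.06 (standard error 0.65), and -3.91 (standard error 0.64) without wild-type replicate 4. Summed over libraries, 362 wild-type and 20 ΔAgo2 counts gave a 16.3-fold lower level in ΔAgo2 cells, with an exact 95% interval of 10.4 to 27.0 that covers counting error only. In bulk RNA, fewer cells with the transcript and less transcript per cell cannot be told apart.

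Of the 7 genes, Gli1 alone was among the 42 genes below an adjusted p of 0.05 in the quasi-likelihood test of edgeR (Benjamini-Hochberg), which were 0.295% of the 14228 tested. It was 1 of the 31 lower in ΔAgo2 cells, 0.218% of those tested. At an unadjusted p under 0.05 stood 2 of the 7, against 7.34% of all genes, and 2 of the 7 had groups that did not overlap, against 6.07%. Since the choice of genes used this comparison, nothing is read from these counts. The call of Gli1 was lost without wild-type replicate 1 or 2, without any 1 of the 4 ΔAgo2 libraries, and with limma on log2(TPM + 1). Over all 8 omissions of a library its log2 fold change lay between -4.63 and -3.77. In the annotation the 3′ end of Gli1 overlaps the opposite-strand gene Arhgap9, and whether the counting used strand is not given in the sources used here.

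Gli2, the main activator (chr1:118834132-119053619, minus strand), had 5.98, 2.63, 3.48 and 16.9 CPM in wild-type replicates 1 to 4 and 5.50, 5.60, 3.38 and 3.97 CPM in ΔAgo2. Wild-type replicate 4 was the highest of all and the groups overlapped. With it the log2 fold change was -0.65 (standard error 0.56), and without it 0.21 (standard error 0.35). Gli3, the main repressor (chr13:15463235-15730026, plus strand), had 61.0, 122.9, 68.2 and 30.3 CPM in wild-type and 103.7, 85.2, 84.0 and 80.0 CPM in ΔAgo2. Here wild-type replicate 4 was the lowest of all and the ΔAgo2 libraries lay inside the wild-type range. For Gli3 the log2 fold change was 0.32 (standard error 0.38), and 0.07 (standard error 0.25) without that library.

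As a share of the summed TPM of the 3 factors, Gli1 made up 4.98%, 3.02%, 1.99% and 7.35% in wild-type libraries and 0.205%, 0.452%, 0.0639% and 0.127% in ΔAgo2. The ranges were apart. Gli3 made up 80.3% ± 19.4 in wild-type and 93.0% ± 1.42 in ΔAgo2 cells, and Gli2 made up 15.3% ± 17.2 and 6.76% ± 1.25 (SD, n = 4). In wild-type replicate 4 the share of Gli3 was 52.1%, against 83.6% to 94.2% in the other 3.

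**Figure D2:**
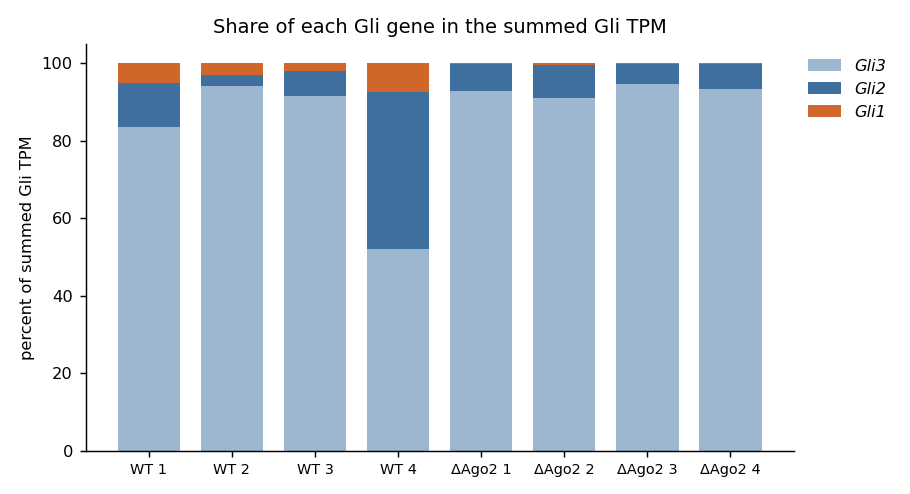
Percent of the summed TPM of the 3 Gli factors taken by Gli3 (light), Gli2 (dark) and Gli1 (orange) in each library. Gli3 made up most of the sum in all 8 libraries, Gli1 made up 1.99% to 7.35% in wild-type and at most 0.452% in ΔAgo2 libraries, and wild-type 4 had the largest share of Gli2 (40.5%).

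Smo, the membrane protein that carries the signal inward (chr6:29735503-29761365, plus strand), had 97.8, 151.6, 96.1 and 227.2 CPM in wild-type and 125.7, 126.6, 74.6 and 121.7 CPM in ΔAgo2 libraries. The groups overlapped, with wild-type replicate 4 the highest. Its log2 fold change was -0.35 (standard error 0.34), and -0.03 (standard error 0.24) without that library. Ptch1, the ligand receptor and a pathway target (chr13:63508328-63573598, minus strand), had 47.5, 41.9, 52.5 and 18.0 CPM in wild-type and 36.5, 30.9, 54.2 and 48.3 CPM in ΔAgo2. It overlapped between the groups, and the log2 fold change was 0.09 (standard error 0.36), or -0.15 (standard error 0.22) without wild-type replicate 4.

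Sufu, the cytoplasmic protein that holds Gli factors (chr19:46396896-46488804, plus strand), had 35.1, 58.8, 37.8 and 94.3 CPM in wild-type and 42.1, 38.8, 32.6 and 33.2 CPM in ΔAgo2 libraries. The groups overlapped. For Sufu the log2 fold change was -0.62 (standard error 0.34), and -0.26 (standard error 0.22) without wild-type replicate 4. Hhip, a membrane decoy that binds the ligands and a pathway target (chr8:79965851-80058006, minus strand), had 12.6, 15.0, 4.63 and 10.1 CPM in wild-type and 24.1, 15.7, 22.3 and 20.9 CPM in ΔAgo2. All ΔAgo2 libraries were above all wild-type libraries, by a narrow margin between 15.0 and 15.7 CPM. Hhip had a log2 fold change of 0.97 (standard error 0.37), or 0.96 (standard error 0.37) without wild-type replicate 4. It did not reach an adjusted p under 0.05, and was 0.31 with an offset for GC content. Gli1 and Hhip, both classical targets, had signs opposite to each other.

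**Figure D3:**
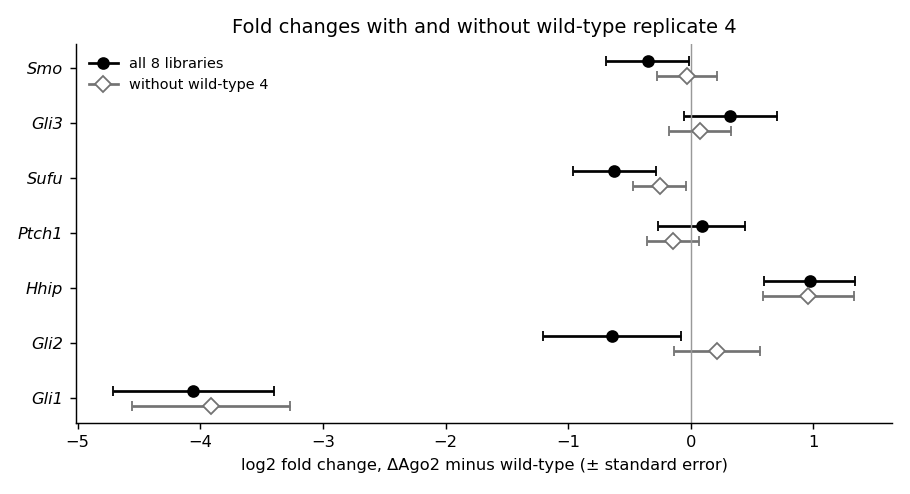
log2 fold change (ΔAgo2 minus wild-type) with its standard error from edgeR for each of the 7 genes, with all 8 libraries (filled) and without wild-type replicate 4 (open). Gli1 (-4.06 and -3.91) and Hhip (0.97 and 0.96) stayed in place, while Gli2 moved from -0.65 to 0.21 and Ptch1 from 0.09 to -0.15.

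The members with GC content of 55.77% to 59.03% over their longest transcript (Sufu, Gli2, Smo and Gli1) had their highest CPM of all libraries in wild-type replicate 4. Gli3 and Ptch1, at 48.45% and 47.76%, had their lowest there, and Hhip, at 41.23%, did not. With the offset for GC content the log2 fold change was -3.79 for Gli1, -0.09 for Gli2, 0.25 for Gli3, -0.02 for Smo and -0.32 for Sufu. The part of GC content in the spread of single genes was not tested. The median log2 fold change of the 7 was -0.35, and that of all tested genes was -0.11.

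The other 100 genes of the pathway fell into 7 lists, and 87 of them were tested. In the quasi-likelihood test of edgeR (Benjamini-Hochberg) 0 passed, where 9 had an unadjusted p under 0.05, 3 higher and 6 lower in ΔAgo2 cells, against 7.34% of all genes. Without wild-type replicate 4, 1 passed (Ccnd1), 10 were higher and 6 lower at that unadjusted p, and the share over all genes was 12.6%. By DESeq2, which called 399 genes in all, 5 of the 100 passed (Foxf1, Osr2, Tbx2, Zic1 and Zic4, all lower). Zic1 and Zic4 are not among the 87 tested by edgeR, and no share over all genes is given for DESeq2. In edgeR the fold changes of the 87 were split evenly, 43 above 0 and 44 below, with a median of -0.03. The genes named below are those with the 3 smallest p in each list, and others are marked.

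Of the ligands and the proteins that release them, Shh had 0 counts in all 8 libraries, where the limit of 3 counts is 0.0425 to 0.0931 CPM, and Ihh had at most 5 counts. Dhh, the third ligand, was at 4.92, 0.439, 2.21 and 2.89 CPM in wild-type and 0.911, 1.19, 2.55 and 1.70 CPM in ΔAgo2 libraries. It overlapped between the groups. Hhat, which attaches palmitate to the ligands, was at 10.5 ± 7.75 and 9.71 ± 0.768 CPM (SD, n = 4), and Disp1, which releases them, was at 28.4, 39.2, 30.4 and 56.9 CPM in wild-type and 48.5, 48.3, 45.3 and 45.3 CPM in ΔAgo2 libraries. None of the 3 tested passed. The log2 fold change of Hhat went from -0.11 to 0.56 without wild-type replicate 4, and that of Disp1 from 0.28 to 0.53.

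All 5 receptors and coreceptors were tested, and none passed. Cdon, a coreceptor, was at 58.2 ± 21.2 CPM in wild-type and 68.3 ± 17.3 in ΔAgo2 cells. Gas1, another coreceptor, was at 10.7, 31.6, 4.16 and 67.1 CPM in wild-type and 22.6, 22.7, 18.2 and 34.5 CPM in ΔAgo2. Its log2 fold change was -0.21, and 0.66 without wild-type replicate 4. Lrp2, a large endocytic receptor, was at 1.46 ± 1.13 and 0.563 ± 0.131 CPM, with a log2 fold change of -1.37 (standard error 0.61) and overlapping groups.

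Of 12 regulators of Smoothened, 11 were tested and none passed. Gpr161, a ciliary receptor that restrains the pathway, was at 24.2, 25.9, 12.8 and 11.8 CPM in wild-type and 28.5, 27.3, 27.3 and 26.1 CPM in ΔAgo2 libraries, with no overlap. Efcab7, which anchors the EVC complex at the cilium, was at 7.65 ± 4.94 and 14.1 ± 1.83 CPM, also with no overlap. For Efcab7 the gap was narrow, between 12.0 and 12.9 CPM, and wild-type replicate 4 was the lowest at 1.86 CPM. When that library was left out, the log2 fold change of Gpr161 went from 0.55 to 0.39 and that of Efcab7 from 0.88 to 0.57.

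Of the 19 kinases, scaffolds and ubiquitin ligases that act on Gli proteins, 0 passed and 0 had an unadjusted p under 0.05, by DESeq2 also 0 passed, and the median log2 fold change was -0.03. Without wild-type replicate 4, 1 had an unadjusted p under 0.05. The share over all genes at that p was 7.34% with that library and 12.6% without it. Prkaca, the catalytic subunit of protein kinase A, was at 152 ± 84.3 CPM in wild-type and 102 ± 12.9 in ΔAgo2 cells. Gsk3a was at 129 ± 84.8 and 90.9 ± 8.84 CPM, and Cul1, the scaffold of the ubiquitin ligase that marks Gli proteins for processing, at 127 ± 71.2 and 180 ± 15.7 CPM (SD, n = 4). All 3 overlapped between the groups. Without wild-type replicate 4 the wild-type mean was 109.7 CPM for Prkaca, 86.9 for Gsk3a and 152 for Cul1, and the log2 fold change went from -0.57 to -0.10, from -0.51 to 0.07 and from 0.50 to 0.24.

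The 27 cilium genes were all tested, and 21 had a fold change above 0, with a median of 0.34. Of all 14228 genes 5864 were above 0, and the median was -0.11. Without wild-type replicate 4 the median was 0.25 for the list and -0.04 for all genes. None passed, and 1 had an unadjusted p under 0.05, against 7.34% of all genes. With that library left out 4 had such a p, all higher, against 12.6% of all genes. Ift57, a subunit of the transport particles of the cilium, was at 37.0, 24.8, 35.5 and 14.7 CPM in wild-type and 44.8, 48.1, 47.1 and 46.6 CPM in ΔAgo2 libraries. The groups were apart, with a log2 fold change of 0.74 (standard error 0.31), and 0.53 (standard error 0.17) without wild-type replicate 4. Tmem67, of the transition zone, was at 4.77 ± 2.12 and 8.46 ± 1.86 CPM, and Ift140, of the return transport particle, at 72.9 ± 44.2 and 44.9 ± 4.98 CPM. With wild-type replicate 4 left out, the wild-type mean of Ift140 was 51.2 CPM, and its log2 fold change went from -0.70 to -0.18.

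**Figure D4:**
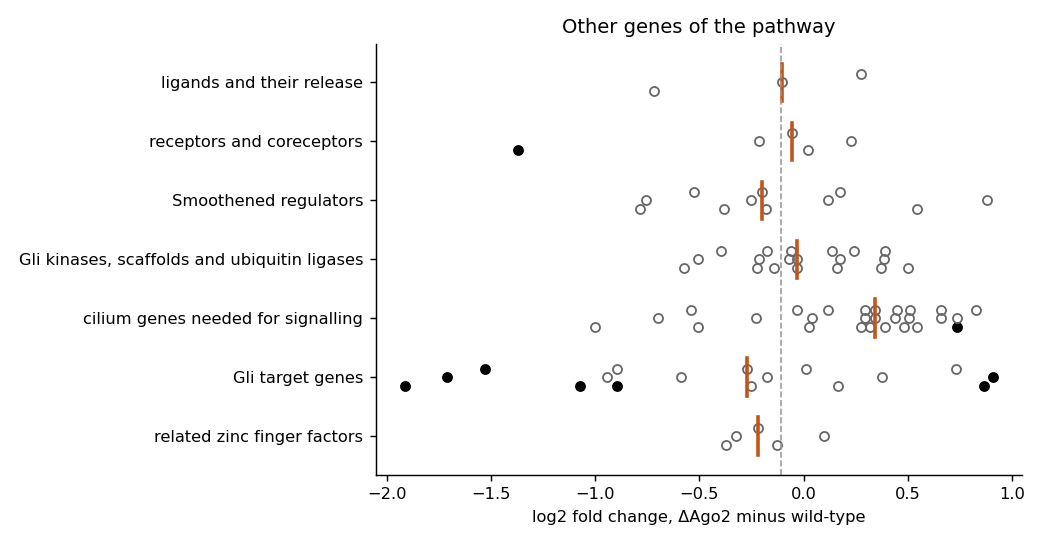
log2 fold change (ΔAgo2 minus wild-type) of the 87 tested pathway genes by list; filled points have an unadjusted p under 0.05 in edgeR, short bars are list medians, and the dashed line is the median of all genes (-0.11). No point passed an adjusted p under 0.05. The Gli target genes held 7 of the 9 filled points, on both sides of 0, where 7.34% of all genes had such a p. The lists were written with earlier results of these data known, so nothing is read from this count.

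Of 21 genes reported as Gli targets in various tissues, 17 were tested, 5 had an unadjusted p under 0.05 with lower values and 2 with higher values in ΔAgo2 cells, and the median log2 fold change was -0.27. Without wild-type replicate 4 these counts were 4 and 2, and the share over all genes at that p was 7.34% with that library and 12.6% without it. With all libraries none passed the adjusted threshold. Since the lists were written with earlier results of these data known, nothing is read from these counts. Osr2, a zinc finger factor of limb and palate mesenchyme, was at 7.68, 5.45, 7.90 and 15.0 CPM in wild-type and 1.55, 2.54, 3.23 and 3.65 CPM in ΔAgo2 libraries. The groups were apart, with a log2 fold change of -1.71 (standard error 0.43, adjusted p = 0.231 in the quasi-likelihood test of edgeR). Foxf1, a forkhead factor of lung mesenchyme, was at 10.6, 8.98, 11.6 and 17.2 CPM in wild-type and 4.82, 5.91, 6.15 and 6.09 CPM in ΔAgo2. The groups were apart here too, with a log2 fold change of -1.07 (standard error 0.31, adjusted p = 0.324 in the same edgeR test). Foxa2, a forkhead factor of endoderm and floor plate, averaged 31.7 ± 7.56 CPM in the wild-type libraries against 17.1 ± 2.75 CPM in ΔAgo2 (SD, n = 4). With a log2 fold change of -0.90 ± 0.28 (standard error), its groups also did not overlap. The log2 fold changes without wild-type replicate 4 were -1.35 for Osr2, -0.85 for Foxf1 and -0.73 for Foxa2.

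The other 4 target genes at an unadjusted p under 0.05 are named after their values were seen. Tbx2, a T-box repressor, was at 0.854, 2.79, 1.92 and 4.69 CPM in wild-type and 1.06, 0.855, 0.294 and 0.492 CPM in ΔAgo2, with overlap at the lowest wild-type library. Its log2 fold change was -1.91 (standard error 0.60), and -1.45 (standard error 0.55) without wild-type replicate 4. Igfbp6, which binds insulin-like growth factor 2, was at 81.0, 33.2, 50.2 and 259 CPM in wild-type and 32.5, 35.5, 43.0 and 35.9 CPM in ΔAgo2. Its log2 fold change of -1.53 became -0.56 without wild-type replicate 4.

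Ccnd1 and Cdk6, a cyclin and its kinase partner of the G1 phase, had fold changes above 0. Ccnd1 was at 526, 530, 528 and 1068 CPM in wild-type and 1330, 1305, 998 and 1200 CPM in ΔAgo2 libraries, so wild-type replicate 4 alone lay among the ΔAgo2 values. The log2 fold change was 0.87 (standard error 0.32), and without that library it was 1.20 (standard error 0.18), where the gene rose (adjusted p = 0.0261 in the quasi-likelihood test of edgeR). In that fit 113 of 14541 genes passed, 0.777%. Cdk6 was at 110.1, 91.8, 85.9 and 26.5 CPM in wild-type and 159, 158, 151 and 121 CPM in ΔAgo2, with the groups apart. Its log2 fold change was 0.91 (standard error 0.39), and 0.63 (standard error 0.16) without wild-type replicate 4.

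**Figure D5:**
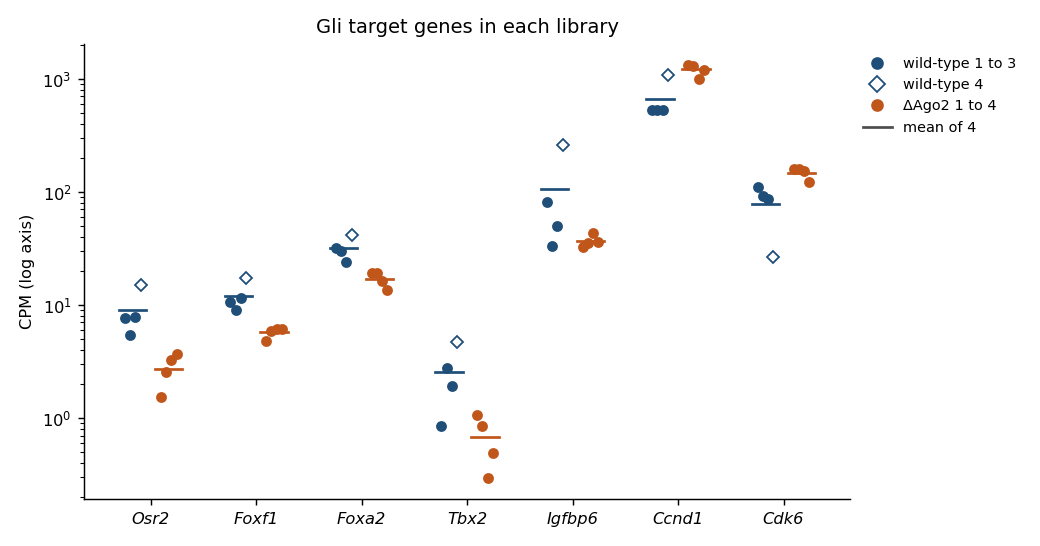
CPM (log axis) in each library of the 7 Gli target genes with an unadjusted p under 0.05; blue is wild-type, the open diamond is wild-type replicate 4, orange is ΔAgo2, and bars are means of 4. Osr2, Foxf1, Foxa2 and Cdk6 had groups apart, and wild-type replicate 4 was the highest or lowest wild-type library for all 7.

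Of 8 zinc finger factors related to the Gli family, 5 were tested and none passed. Zic2 was at 23.6 ± 3.20 and 18.3 ± 2.73 CPM, Glis2 at 45.2 ± 27.9 and 36.1 ± 2.13 CPM, and Glis3 at 21.1 ± 7.75 and 18.2 ± 2.91 CPM in wild-type and ΔAgo2 cells (SD, n = 4). When wild-type replicate 4 was left out, the log2 fold change of Glis2 went from -0.32 to 0.17 and that of Glis3 from -0.22 to -0.45. Zic1 and Zic4 were below the filter of edgeR and were called by DESeq2. Zic1 had 15, 5, 8 and 2 counts in wild-type and 0 in each ΔAgo2 library, and Zic4 had 4, 1, 7 and 14 counts against 0. Both are named after their values were seen, and at these counts no fold is given. In the annotation Zic1 and Zic4 overlap on opposite strands, and whether the counting used strand is not given. Their counts may therefore not be separate signals, which was not tested.

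The nearest tested gene on each side of each of the 7 was examined, 14 in all, and 1 passed. Of all 14228 genes tested 0.295% passed, and nothing is read from this count. The neighbour that passed was Inhbb, the inhibin beta B subunit, which lies 361845 bases from Gli2. It had 170, 28, 46 and 40 counts in wild-type and 0, 0, 0 and 1 counts in ΔAgo2 libraries (adjusted p = 0.0247 in the quasi-likelihood test of edgeR). From its 284 and 1 counts the ratio of ΔAgo2 to wild-type was 0.00392, with an exact 95% interval of 9.88e-05 to 0.0220 for counting error. The call was lost without any 1 of the 4 ΔAgo2 libraries and with limma on TPM. Clasp1, on the other side of Gli2, was at 82.2 ± 27.0 and 79.1 ± 8.54 CPM. Beside Gli1, Arhgap9 was at 15.4 ± 14.4 and 7.31 ± 1.71 CPM and R3hdm2 at 126 ± 42.7 and 144 ± 9.61 CPM, both with overlapping groups. The log2 fold change of Arhgap9 was -1.07, and -0.18 without wild-type replicate 4, while Gli1 was at -4.06 and -3.91. The remaining 10 neighbours (Gm26645, Inhba, Fancc, Ercc6l2, Gm43029, Gm13717, Actr1a, Trim8, Anapc10 and Smarca5) had log2 fold changes from -0.79 to 0.70, and none passed.

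The genes with the most similar profiles were found by the root mean square difference of centred log2 CPM over the 8 libraries, among genes with a mean of 1 CPM or more. Among these genes Gli1 had no close match, with differences of 0.702 for Sned1, 0.852 for Acvrl1 and 0.876 for Zfp503. Gli1 itself lay below that limit, so genes as low as Gli1 were not compared. Its ΔAgo2 libraries held 7, 9, 1 and 3 counts, and the part of counting error in its differences was not tested. The nearest gene was at 0.0799 for Gli3 (Slc25a24), 0.108 for Ptch1 (Zscan12), 0.109 for Sufu (Atpaf2) and 0.112 for Smo (Slc4a3). It was at 0.205 for Gli2 (Gm11175) and 0.254 for Hhip (Pank1). These values share libraries and their depth, and are a description of likeness alone.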

How the data were processed

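RNA of 8 samples of cultured cells labelled wild-type or Ago2 knock-out was read with a stranded mRNA kit in paired-end mode. Per the labels and the study's methods, the authors removed rRNA reads, aligned to mm10 (STAR in the submitters' processing notes) and made gene counts with featureCounts. Aligner and counter versions, annotation release and strand setting of these gene counts are not given in the sources used here (the methods give STAR and Subread versions for a separate quantification of transposable elements). The deposited counts are unnormalized reads per gene and the deposited TPM values are scaled per length and library by the authors. Symbols of 55394 of 55487 IDs and all positions came from GENCODE M21 (GRCm38). No per-sample column was left unused.

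Counts were tested with edgeR 4.0.16 (filterByExpr, TMM, quasi-likelihood test, Benjamini-Hochberg over all 14228 genes tested, threshold 0.05), in R 4.3.3, without covariates. CPM are counts per 1000000 of the TMM-scaled library. Levels between genes were compared in TPM. Alternatives used DESeq2 1.42.0 (Wald test), limma 3.58.1 on log2(TPM + 1) and log2(TPM + 0.1), voomWithQualityWeights, other scalings and filters, an offset for GC content, the replicate block, and each library left out. The code was tested on simulated data. Intervals are exact binomial (95%) and cover counting error only, as does the floor of 3 counts.

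The members, lists and alternatives were chosen with earlier results of these data known. Named genes are all members, those with the 3 smallest p in each list, the nearest tested neighbours and the 3 genes of nearest profile for each member. Tbx2, Igfbp6, Ccnd1, Cdk6, Zic1 and Zic4 and the miRNAs were chosen after values were seen. Some items that these rules name are not reported here.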

Additional observations from a re-analysis of the deposited data

Results flagged for a closer look

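On the log2 CPM scale, 72 groups of 4 libraries were examined for 1 value far from the rest, as the share of the whole range that separates the extreme value from the nearest other. A share that large is met by chance in about 1 of 20 groups, and 11 values met it. No cause was tested for any of them.

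In wild-type cells the Gli1 level was lowest in replicate 3 (share 0.841), at 0.772 CPM (52 counts) where the other 3 had 1.89 to 2.23 CPM. In ΔAgo2 cells the Smo level was lowest in replicate 3 (share 0.924), at 74.6 CPM where the others had 121.7 to 126.6 CPM. Wild-type replicate 4 was the highest of its group in CPM for Prkaca (share 0.859, 278 against 101 to 117 CPM), Gsk3a (share 0.849, 256 against 81.4 to 96.8 CPM) and Ccnd1 (share 0.990, 1068 against 526 to 530 CPM), and the lowest for Glis3 (share 0.973, 9.50 against 24.7 to 25.3 CPM). Cul1 was lowest in the third ΔAgo2 library (share 0.873, 156.2 against 184.9 to 189.5 CPM). Foxf1 was lowest in the first ΔAgo2 library (share 0.839, 4.82 against 5.91 to 6.15 CPM). R3hdm2, the neighbour of Gli1, was highest in the third wild-type library (share 0.895, 190 against 100.4 to 107.3 CPM) and lowest in the fourth ΔAgo2 library (share 0.929, 129.6 against 148 to 149.5 CPM). Inhbb gave a share of 1 in ΔAgo2 cells, where a single count in replicate 4 stood beside 0 in the other 3.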

How the results depend on the processing

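Against 42 genes with an adjusted p under 0.05, DESeq2 called 399, no filter on low counts 143, limma on log2(TPM + 1) 15, voomWithQualityWeights 257, the replicate block 18, the GC offset 76 and the GC offset with the replicate block 74, and leaving out 1 library gave 1 to 113. Of the 7 Hedgehog genes 1 was called, 0 with limma on log2(TPM + 1), and 0 to 1 with 1 library left out. Of the other pathway genes 0 were called by edgeR, 5 by DESeq2 and 2 by voomWithQualityWeights (Ccnd1 and Osr2), and 0 to 1 with 1 library left out. Of the 14 neighbours 1 was called, against 0.295% of all genes, with 0 under limma on log2(TPM + 1) or log2(TPM + 0.1), and 0 to 1 with 1 library left out. The cause was not tested, but leaving out a library also leaves fewer samples. The log2 fold change of Gli1 was below 0 in all 19 alternatives (-4.63 to -0.92, the weakest with limma on log2(TPM + 1)) and that of Hhip above 0 in all 19. That of Gli2 was above 0 with voomWithQualityWeights (0.15) and without wild-type replicate 4, that of Smo with voomWithQualityWeights (0.14), and that of Ptch1 was below 0 with voomWithQualityWeights (-0.33) and without wild-type replicate 4 or ΔAgo2 replicate 3.

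Genes with no call that changed direction were Hhat (0.10 with library size alone, 0.25 and 0.33 with limma on log2(TPM + 1) and log2(TPM + 0.1), 0.42 with voomWithQualityWeights, 0.14 with the replicate block, 0.18 with the GC offset and 0.27 with both, -0.31 to 0.56 with 1 library left out), Gas1 (0.59, 0.64, 1.00, 0.42, 0.36 and 0.73 in the same order from limma on, -0.57 to 0.66), Gsk3a (0.12 with voomWithQualityWeights, -0.67 to 0.071), Glis2 (0.063 and 0.069 with limma, 0.35 with voomWithQualityWeights, 0.084 with the GC offset, 0.15 with the replicate block added, -0.54 to 0.18), Glis3 (0.039 and 0.079 with limma) and Clasp1 (0.0043 with library size alone, 0.19 and 0.22 with limma, 0.013 with the replicate block, -0.26 to 0.058). The median log2 fold change of all genes was -0.11 with TMM and -0.01 with library size alone. Between libraries of the same replicate number, the correlations of deviations were -0.14, -0.05, 0.38 and 0.03. Pairs of unlike number were not compared, so whether the numbers pair the libraries cannot be told. The replicate block called 18 genes with Gli1 among them.

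Depth limits Gli1, Zic1, Zic4 and Inhbb in ΔAgo2 libraries, where single libraries held 0 to 9 counts.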
